A study of Mus musculus with 12 samples.

Results

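A set of 10 genes that mark the lining of the third ventricle were followed across 12 bulk RNA-seq libraries of mouse hypothalamus, 5 known from tanycytes (Rax, Crym, Dio2, Gpr50 and Col23a1) and 5 known from the motile cilia of ependymal cells (Foxj1, Fam183b, Tppp3, Ccdc153 and Tmem212). They were picked by gene symbol from markers of both cell types, out of 78334 gene IDs in the count table. All 10 were found and all 10 passed the filter on low counts, as did 25562 IDs in all. Their levels in these libraries, and the difference between curcumin-treated and untreated diabetic mice, were known when they were picked, so that contrast is described below without a test. Tppp3 and Fam183b were among the genes called in it. The other comparisons use the same diabetes libraries, so the p-values of Tppp3 and Fam183b there carry that choice too.

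Tanycytes are elongated cells of the floor and lower walls of the third ventricle whose processes reach into the hypothalamus. They sense nutrients, move hormones between blood, cerebrospinal fluid and brain, and activate thyroid hormone, which Dio2 does by removing an iodine from thyroxine. Ependymal cells above them carry tufts of motile cilia that move cerebrospinal fluid. Such a cilium is built around an axoneme, a ring of microtubule doublets with dynein motor arms, radial spokes and a central pair, and its genes are switched on by Foxj1 together with transcription factors of the RFX family.

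All libraries came from male C57BL/6 mice. The control group (n = 3) ate standard chow and was gavaged with vehicle. The diabetes group (n = 4) received 70 mg/kg of streptozotocin, which destroys pancreatic beta cells, at postnatal day 2, ate a diet with 60% of its energy from fat for 8 weeks from 3 weeks of age, and was gavaged with vehicle. The curcumin group (n = 3) and the aged garlic extract group (n = 2) had the same streptozotocin and diet, with 50 mg/kg of curcumin or 200 mg/kg of extract by gavage on each of 28 days. The submitters' texts place the first dose at week 7 or after week 11 of the diet. Streptozotocin and diet were given together, so their parts cannot be told apart. Age at sampling and blood glucose were not used here. The labels do not say that each library is 1 mouse, and every p-value below reflects only how far these libraries spread, which may be technical.

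Total counts ran from 12950017 to 30271706 per library. Curcumin replicate 2 stood apart: its 19 hypothalamic identity genes summed to 55.7 CPM (read counts scaled to an equal library size), against 582.1 to 4517 in the other 11 libraries, and 6 of the 19 (Nkx2-4, Fezf1, Six6, Hmx2, Hmx3 and Hcrt) were at 0. Nkx2-1, a transcription factor that defines the ventral hypothalamus, was at 0.0497 CPM there and at 28.6 or more elsewhere. Diabetes replicate 4 also stood apart, with 12 pituitary genes summing to 880.6 CPM against at most 26.2 elsewhere, and with the highest sums of 9 meningeal genes (4691 CPM) and 8 blood genes (1755 CPM). In control replicate 3 the 12 astrocyte genes summed to 1344 CPM, against 3159 to 4731 elsewhere. Gfap, one of them, was at 80.7 CPM there and at 141.6 or more elsewhere. The 20 markers of the choroid plexus, another ciliated tissue of the ventricles, summed to 46.8 to 103 CPM, with 6 to 20 of them above 0. Its defining genes were at 0 to 9.34 CPM (Ttr) and 0 to 4.65 CPM (Folr1). In bulk tissue, fewer cells of a type and less RNA per cell cannot be told apart.

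Short stretches of promoter sequence are shown for 3 cilia genes, 2 of which (Ccdc153 and Tmem212) moved together across libraries. They come from RefSeq promoters of build GRCm38.p6, which held 6 of the 10 genes, and cover bases upstream of the annotated start. The stretches of Ccdc153 and Tmem212 end at bases -11 and -31 from it, so the bases nearest the start are not printed. GTTGCC, the first 6 bases of the X-box that RFX factors bind, was searched on both strands of the 250 upstream bases and is in capitals. Fam183b held it 2 times and Ccdc153 once.
Fam183b, chr11:58802010-58802039, minus strand: agcctgggcgctGTTGCCtagagacagaaa
Fam183b, chr11:58801961-58801990, minus strand: caagaggaacatccGTTGCCtggaaactgt
Ccdc153, chr9:44240427-44240666, plus strand: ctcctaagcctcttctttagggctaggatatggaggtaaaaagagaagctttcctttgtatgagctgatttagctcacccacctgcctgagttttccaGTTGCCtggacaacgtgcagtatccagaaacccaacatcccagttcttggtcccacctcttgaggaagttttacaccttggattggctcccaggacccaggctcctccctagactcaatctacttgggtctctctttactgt
Tmem212, chr3:27896399-27896618, minus strand: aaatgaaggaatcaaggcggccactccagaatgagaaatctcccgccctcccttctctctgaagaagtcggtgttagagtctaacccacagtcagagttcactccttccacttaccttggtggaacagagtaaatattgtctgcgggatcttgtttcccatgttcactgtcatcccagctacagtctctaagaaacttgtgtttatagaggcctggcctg
Tmem212, and the tanycyte genes Dio2, Gpr50 and Col23a1, had no GTTGCC in this window. The motif was in 10.5% of 27025 promoters, in 28 of 79 promoters of other cilia genes (35.4%) and in 0 of 18 promoters of other tanycyte genes. The full palindromic X-box (0.244% of promoters, overlapping GTTGCC), the forkhead motif TGTTTAC (3.09%) and the homeodomain core TAATTA (4.9%) were in none of the 6. A match is a string of letters and no measure of binding.

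**Figure D1:**
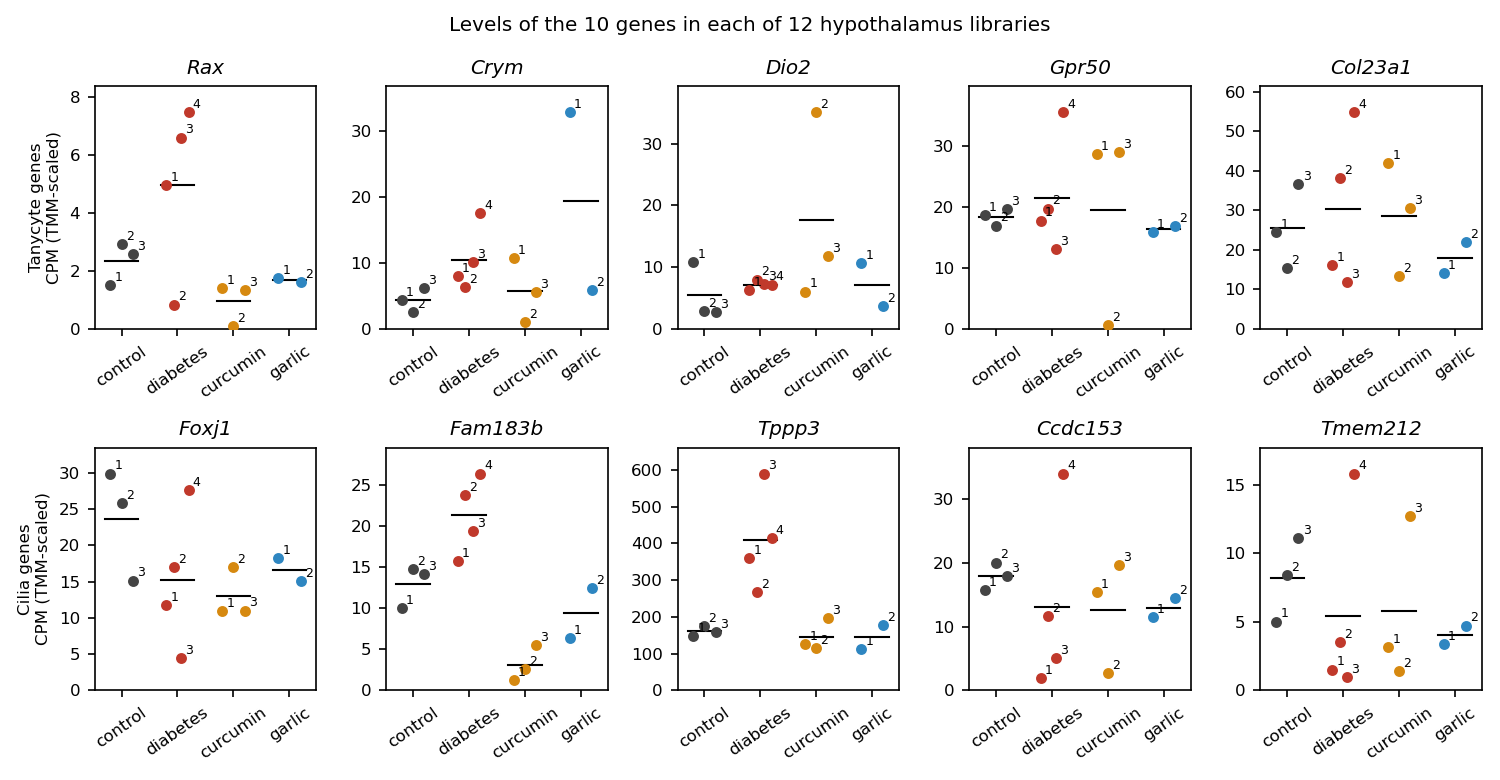
Level of each gene in CPM on a TMM-scaled library size (vertical axis, linear, a scale of its own in each panel) in the 12 libraries, by group. Points are libraries with their replicate number and bars are group means; the 4 diabetes libraries lie above all others for Tppp3, between 268 and 590.3 CPM.

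Per kilobase of exon, which allows genes to be compared, the group means of the cilia genes lay above those of the tanycyte genes in control hypothalamus. Tppp3 led at 86.9 CPM per kilobase, followed by Fam183b at 22.9, and the ranges of those libraries did not overlap with the next gene. Tmem212 (11.4), Foxj1 (8.995) and Ccdc153 (8.80) followed in that order, each with a range overlapping its neighbour. Of the tanycyte genes Gpr50 (6.02) and Col23a1 (4.44) overlapped each other, and Crym (1.29), Dio2 (0.941) and Rax (0.401) came last, again with overlapping neighbours. The range of Foxj1 (5.77 to 11.39) also overlapped those of Gpr50 (5.53 to 6.41) and Col23a1 (2.67 to 6.39). In curcumin-treated libraries Fam183b stood at rank 5 with 5.53 CPM per kilobase, between Ccdc153 (6.18) and Col23a1 (4.99), whose ranges it overlapped. Exon lengths come from a GRCm38 annotation and run from 567 bases for Fam183b to 5846 bases for Rax.

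None of the 5 tanycyte genes passed the test between diabetic and control hypothalamus, and their libraries were widely spread. Values below are CPM, given in replicate order. Rax, the homeobox factor that marks tanycytes, was at 1.52, 2.93 and 2.58 in control and at 4.98, 0.845, 6.61 and 7.50 in diabetes. In diabetes 3 of 4 libraries were above every control and 1 was below all of them. Its log2 change was 1.09 ± 0.91 (SE; edgeR adjusted p = 0.775). Crym, which binds thyroid hormone in the cytoplasm, was at 4.35, 2.54 and 6.26 in control and at 7.98, 6.37, 10.1 and 17.6 in diabetes. Its groups did not overlap, with a gap of less than 1 CPM between the highest control and the lowest diabetes library, and its log2 change was 1.26 ± 0.65 (edgeR adjusted p = 0.476).

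Dio2 was nearly level in diabetes, at 6.25, 8.00, 7.31 and 7.19 CPM, while the controls held 10.8, 2.93 and 2.68. One control was above and the other 2 below all diabetes libraries (log2 change 0.39 ± 0.59; edgeR adjusted p = 0.941). Control replicate 3, the lowest in Dio2, was also the lowest in the summed astrocyte genes (1344 CPM). Control replicate 2, at 2.93 CPM, had an astrocyte sum of 4107 CPM, and the part of astrocytes was not tested. Gpr50, an orphan relative of the melatonin receptors, was at 18.7, 17.0 and 19.7 CPM in control and 17.8, 19.8, 13.1 and 35.6 in diabetes. Col23a1, a transmembrane collagen, was at 24.4, 15.3 and 36.6 CPM in control and 16.2, 38.2, 11.8 and 54.9 in diabetes. For both genes diabetes replicate 4 was the highest of all 12 libraries, and their log2 changes of 0.23 ± 0.64 and 0.25 ± 0.46 (edgeR adjusted p = 0.984 and 0.962) became -0.14 and -0.22 without that library and curcumin replicate 2.

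The cilia genes split in diabetes: Tppp3 and Fam183b lay higher than in control without overlap, while Foxj1, Ccdc153 and Tmem212 had negative fold changes. Tppp3, which bundles and stabilises microtubules and is also found outside ciliated cells, was at 148, 176 and 158 CPM in control and at 361, 268, 590.3 and 414 in diabetes. The lowest diabetes library exceeded the highest control by more than the range of the controls. Its log2 change was 1.35 ± 0.27, with an unadjusted p of 1.2e-04 and an edgeR adjusted p of 0.0974, which misses the threshold of 0.05. Tppp3 was picked with its curcumin difference from these same diabetes libraries known, so its p-values here are not free of that choice. Over the other ways of processing the log2 change ran from 0.93 to 1.501, and the adjusted p (edgeR, DESeq2 or limma) from 5.76e-05 to 0.6147. Fam183b, a small protein of motile cilia, was at 10, 14.8 and 14.1 CPM in control and at 15.8, 23.8, 19.4 and 26.4 in diabetes (log2 change 0.72 ± 0.42; edgeR adjusted p = 0.547). Its lowest diabetes library was about 1 CPM above the highest control.

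Foxj1, the master regulator of motile cilia, was at 29.9, 25.8 and 15.1 CPM in control and at 11.8, 17.0, 4.44 and 27.6 in diabetes (log2 change -0.63 ± 0.44; edgeR adjusted p = 0.654). Ccdc153, a coiled-coil protein used as an ependymal marker, was at 15.8, 20.1 and 17.9 CPM in control and at 1.94, 11.6, 5.05 and 34.0 in diabetes. Tmem212, a membrane protein and ependymal marker, was at 5.02, 8.40 and 11.1 CPM in control and at 1.52, 3.55, 0.957 and 15.8 in diabetes. In both genes diabetes replicates 1, 2 and 3 were below every control and replicate 4 was above every control. Their log2 changes were -0.44 ± 0.68 and -0.58 ± 0.83 (edgeR adjusted p = 0.940 and 0.931). Without diabetes replicate 4 and curcumin replicate 2 they were -1.55 and -2.04, and still missed the threshold (edgeR adjusted p = 0.235 and 0.261). Over their other alternatives the log2 changes ran from -1.88 to -0.08 and from -2.17 to -0.23.

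Of the 10 genes, 0 passed the edgeR test between diabetes and control, where 0.0156% of all genes tested did. At an unadjusted p under 0.05 there was 1, Tppp3, against 12.3% of all genes. DESeq2 and limma-voom each called Tppp3 and no other of the 10. Crym, Fam183b and Tppp3 were higher without overlap and none was lower, where 5.78% of all genes were higher and 8.94% lower without overlap. Blood markers moved with the same contrast, at 264.3 to 1755 CPM in diabetes against 87.5 to 196.4 in control, and so did the number of genes detected. At equal depth 20133 to 22515 genes were detected in diabetes and 25766 to 33157 in control. Markers of brain region separated the groups too. The 19 hypothalamic identity genes summed to 2158 to 4517 CPM in diabetes and 1455 to 2045 in control, and 12 genes of thalamus and habenula to 87.2 to 124 and 174.7 to 417 CPM. Their part in these results was not tested.

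**Figure D2:**
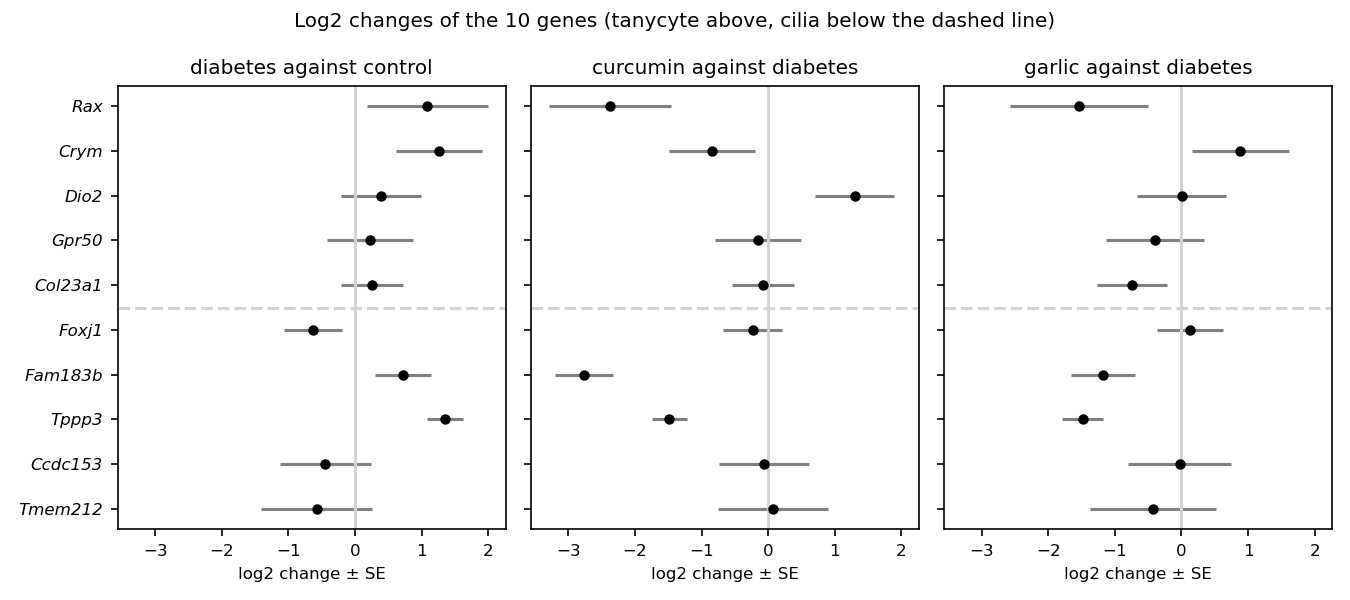
Log2 change of each gene (horizontal axis) with its standard error (bar) from the edgeR fit over 12 libraries, for 3 comparisons; tanycyte genes are above the dashed line and cilia genes below it. In diabetes against control the 5 tanycyte genes lie between 0.23 and 1.26, while the cilia genes run from -0.63 to 1.35.

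Between curcumin-treated and untreated diabetic hypothalamus, Fam183b and Tppp3 had the clearest separation of the cilia genes, in the contrast that was known when the genes were picked. Fam183b was at 1.28, 2.58 and 5.55 CPM with curcumin, against 15.8 or more in diabetes and 10 or more in control. Its log2 difference was -2.77 ± 0.43. Tppp3 was at 125, 116 and 197 CPM with curcumin, around the control values and below the lowest diabetes library at 268 CPM. Its log2 difference was -1.48 ± 0.27. Without diabetes replicate 4 and curcumin replicate 2 the differences were -2.51 and -1.33. The whole table's fit calls 0.09% of all genes in this contrast, and 4.19% were lower and 5.43% higher without overlap. Both genes are in that called set, which was known when they were picked, so nothing is read from their place in it. Hypothalamic identity genes summed to less with curcumin, at 55.7 to 1503 CPM against 2158 or more in diabetes. Genes of thalamus and habenula summed to more, at 126.7 to 518.5 CPM against at most 124. The part of both lists was not tested.

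The other 3 cilia genes overlapped. Foxj1 held 10.9, 17.0 and 11.0 CPM with curcumin (log2 difference -0.23 ± 0.44). Ccdc153 held 15.4, 2.68 and 19.7 CPM and Tmem212 3.17, 1.39 and 12.7, with log2 differences of -0.07 ± 0.68 and 0.07 ± 0.83. Curcumin replicate 2 was the lowest of its group for both, and without it and diabetes replicate 4 the differences were 1.51 and 1.99.

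Among the tanycyte genes curcumin replicate 2 was the lowest of its group for Rax, Crym, Gpr50 and Col23a1 and the highest for Dio2. Rax held 1.42, 0.0993 and 1.34 CPM with curcumin, the second of these from 2 counts, and its log2 difference was -2.38 ± 0.92. Without curcumin replicate 2 alone this was -1.80, and without diabetes replicate 4 as well, -1.58. Diabetes replicate 2, at 0.845 CPM, lay within the curcumin range. Gpr50 held 28.7, 0.646 and 29.1 CPM, the second from 13 counts (log2 difference -0.15 ± 0.64, and 0.45 without curcumin replicate 2). Dio2 went the other way, at 6.06, 35.1 and 11.8 CPM. Replicate 2 was the highest of all 12 libraries, and the log2 difference of 1.30 ± 0.59 became 0.35 without it. The astrocyte genes of that library also summed to the most, at 4731 CPM, and their part was not tested. Crym (10.8, 1.09 and 5.6 CPM) and Col23a1 (42.1, 13.3 and 30.5 CPM) were also lowest in replicate 2, with log2 differences of -0.85 ± 0.65 and -0.08 ± 0.46, and of -0.32 and 0.29 without it. The low hypothalamic identity genes of this library stand beside these values, and their part was not tested.

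With aged garlic extract, Tppp3 and Fam183b were again below every diabetes library. Tppp3 was at 113 and 179 CPM, with a log2 change of -1.48 ± 0.30 (edgeR adjusted p = 0.149; unadjusted 2.3e-04). Over the other settings this change ran from -1.85 to -0.81 and its adjusted p (edgeR, DESeq2 or limma) from 0.0003607 to 1. Fam183b was at 6.42 and 12.4 CPM, with a log2 change of -1.18 ± 0.48 (edgeR adjusted p = 0.414). The curcumin and garlic comparisons share the 4 diabetes libraries, so their values for these genes are not independent of each other, nor of the comparison with control. The p-values of Tppp3 and Fam183b with garlic extract therefore carry the way these genes were picked.

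No other cilia gene separated from diabetes with the extract. Foxj1 was at 18.2 and 15.1 CPM, Ccdc153 at 11.5 and 14.4, and Tmem212 at 3.41 and 4.74, all within the diabetes ranges, with log2 changes of 0.13 ± 0.50, -0.02 ± 0.77 and -0.43 ± 0.94. The tanycyte genes overlapped too. Rax was at 1.77 and 1.63 CPM (log2 change -1.54 ± 1.04; edgeR adjusted p = 0.749). Crym was at 32.9 and 5.84 CPM, the highest and the fifth lowest of the 12 libraries. Dio2 was at 10.6 and 3.74 CPM, Gpr50 at 15.9 and 17.0, and Col23a1 at 14.2 and 22.0, with log2 changes of 0.00 ± 0.67, -0.40 ± 0.73 and -0.75 ± 0.53. Of the 10 genes, 0 passed the edgeR test, as did 0% of all genes. At an unadjusted p under 0.05 there were 2, Tppp3 and Fam183b, against 10.9% of all genes, and DESeq2 and limma-voom each called 1, Tppp3. These 2 were lower without overlap, as were 7.52% of all genes, with 13.2% higher. Blood markers, at 115.2 and 154.2 CPM, were also below every diabetes library, as were hypothalamic identity genes at 967.5 and 2134 CPM. Meningeal genes, at 253.4 and 257.2 CPM against 440.1 or more, were below them too. Genes of thalamus and habenula (138.9 to 152 CPM against at most 124) were above every diabetes library. So were oligodendrocyte genes (6818 to 7388 CPM against at most 6516) and the genes detected at equal depth (33125 and 34719). Their part was not tested.

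To set the cell types side by side, each library was given a tanycyte score and a cilia score, obtained by centring each gene's log2 CPM on its average over 12 libraries and averaging the 5 genes. Control libraries had a cilia score above their tanycyte score in 3 of 3 cases, with a mean gap of 0.61 ± 0.44 (SD, n = 3). In diabetes the gap was -0.23 ± 0.58 (SD, n = 4), with 2 libraries on each side of 0. It was -0.21 ± 0.86 (SD, n = 3) with curcumin and -0.15 ± 0.77 (SD, n = 2) with garlic extract. Diabetes differed from control by -0.84, and by -1.02 to -0.59 when 1 library was left out. Curcumin and garlic extract differed from diabetes by 0.02 and 0.08, with ranges of -0.36 to 0.48 and -0.47 to 0.63. The genes were picked with their values known, so these are descriptions.

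A mean over the cilia genes hides their split. Without Tppp3 the gap between diabetes and control was -1.23, and without Tmem212 it was -0.57. The cilia score was 0.43 ± 0.17 in control and 0.16 ± 0.89 in diabetes, where replicates 1 and 3 stood at -0.55 and -0.48 and replicate 4 at 1.36. The tanycyte score was -0.18 ± 0.29 in control and 0.39 ± 0.51 in diabetes, with replicate 4 again highest at 1.14. Curcumin replicate 2 was lowest on both scores, at -1.76 for tanycyte and -1.22 for cilia genes. These 2 libraries, which stood apart in their marker genes, sat at the opposite ends of both scores.

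**Figure D3:**
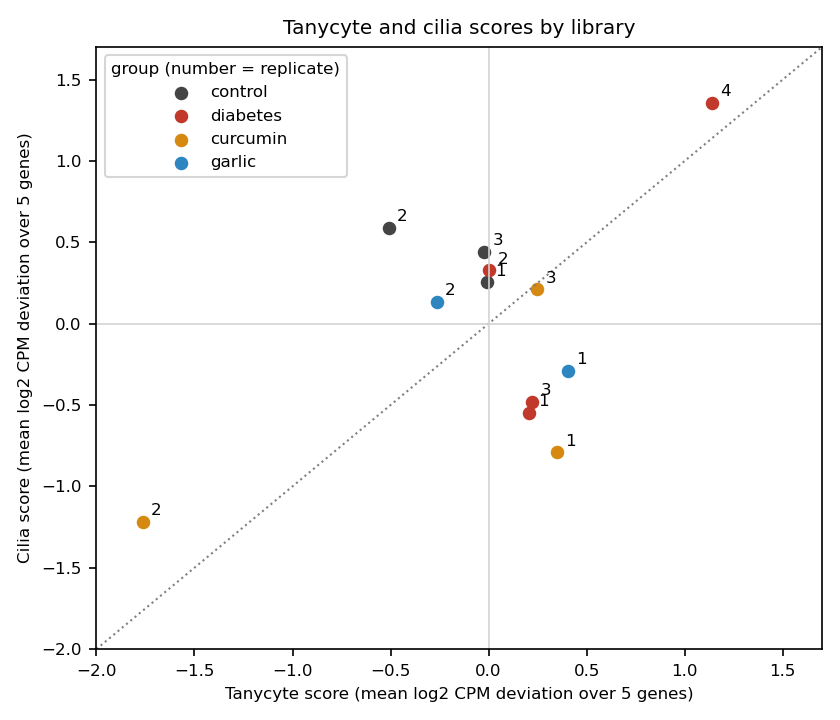
Cilia score (vertical axis) against tanycyte score (horizontal axis) of each library, both in log2 CPM deviation averaged over 5 genes; points are coloured by group and numbered by replicate, and the dotted line marks equal scores. Diabetes replicate 4 lies at 1.14 and 1.36 and curcumin replicate 2 at -1.76 and -1.22, with the other 10 libraries between them.

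Across libraries the 10 genes did not form a tanycyte block and a cilia block. The median Pearson's r of log2 CPM over 12 libraries was 0.19 among the 10 tanycyte pairs, 0.17 among the 10 cilia pairs and 0.21 among the 25 mixed pairs. Without curcumin replicate 2 these were 0.09, 0.10 and -0.08. All libraries share the TMM scaling and differ in group and depth, and these values are descriptions. The closest pair was Ccdc153 and Tmem212, with r = 0.87 over 12 libraries, Spearman's rho of 0.91, and r = 0.86 after group means were removed. Of their upstream bases, shown in part above, only those of Ccdc153 hold GTTGCC. The unprinted bases of Tmem212 hold ggtaac, which fits the closing bases of the X-box (GGNAAC, N being any base). That string was not searched for on its own, so no difference in X-box content is read from this. Fam183b and Tppp3 had r = 0.70 (0.50 after group means were removed). Foxj1 and Tppp3, by contrast, had r = -0.42, Spearman's rho of -0.30, and r = -0.54 after group means were removed. Their r was -0.43 without curcumin replicate 2, and 0.21 without the 2 libraries farthest from the median.

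Among tanycyte genes Rax and Gpr50 had the highest r over 12 libraries, followed by Crym and Gpr50 (0.65), Rax and Crym (0.60) and Gpr50 and Col23a1 (0.56). Without curcumin replicate 2 Gpr50 and Col23a1 came first at 0.85. Rax and Gpr50 had r = 0.71 over 12 libraries and -0.05 without that library, so their likeness rested on it. Rax and Dio2 went from -0.62 to -0.19 in the same way. The tanycyte gene Rax was closer to the cilia gene Tppp3, at 0.69 with and 0.71 without that library, than to Dio2, Gpr50 or Col23a1 in the 11 libraries.

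**Figure D4:**
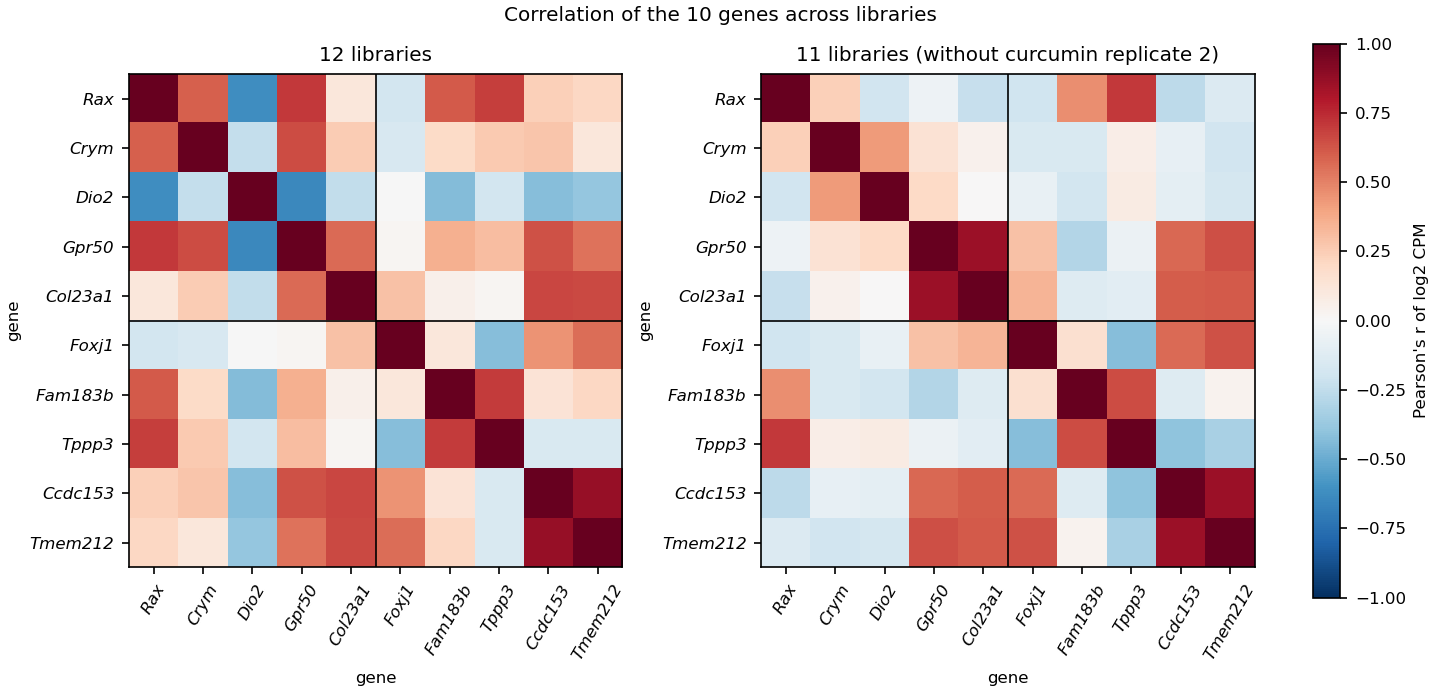
Pearson's r of log2 CPM between each pair of the 10 genes over 12 libraries (left) and over 11 libraries without curcumin replicate 2 (right); red is positive, blue negative, and black lines divide tanycyte from cilia genes. The pair Ccdc153 and Tmem212 stays at 0.87 and 0.85, while Rax and Gpr50 go from 0.71 to -0.05.

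Of 13812 genes compared, those with profiles most like the cilia score were Cttn, which binds cortical actin (r = 0.90, n = 12 libraries), Ces1d, a carboxylesterase (0.89), and the cilia genes Sntn (0.88), Drc7 (0.87) and Ak7 (0.84). Sntn, a protein of the ciliary tip, was at 1.39, 2.87 and 2.04 CPM in control and at 0, 2.25, 0 and 3.98 in diabetes. It was also at 0 in curcumin replicates 1 and 2. Most like the tanycyte score were Bsx, a homeobox factor of hypothalamic neurons (0.90), Sulf1 (0.89), Rgs14 (0.88), Rcn1 (0.87) and Gnb4 (0.87). Without curcumin replicate 2 these fell to between 0.56 and 0.76, and Bsx was at 0 in that library and at 10.1 CPM or more in the other 11. For Cttn, Ces1d, Sntn, Drc7 and Ak7 the correlation with the cilia score was between 0.77 and 0.93 without that library.

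Beyond the members, 94 other cilia genes were read, all of which passed the low-count filter. Each gene was tested singly, and the list as a set was not tested. In diabetes against control 69 of the 94 had a negative log2 change and 25 a positive one, with a median of -0.40 beside -0.07 over all genes. With 1 library left out the median ran from -0.70 (without diabetes replicate 4) to -0.22 (without diabetes replicate 1). None passed the edgeR test. At an unadjusted p under 0.05, 9 were lower and 1 higher. Over all genes 12.3% passed in either direction, with 1913 of 25562 lower and 1224 higher. The count over both directions together is therefore no larger than the background. DESeq2 called 0, and limma-voom called 3, with Tppp and Armc4 lower and Rsph9 higher. Of these, Tppp is also abundant in oligodendrocytes. Without overlap 20 were lower and 1 higher, where 8.94% and 5.78% of all genes were. The 21 dynein arm genes had a median of -0.72 with 17 below 0, the 16 regulators of ciliogenesis -0.49, the 21 radial spoke, central pair and nexin-dynein genes -0.39, and the 36 microtubule inner and other axonemal genes -0.37.

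Single libraries carried much of this. The number of these 94 genes below their own 12-library mean was 8, 18 and 11 in control, 74, 27, 65 and 27 in diabetes, 43, 82 and 31 with curcumin, and 40 and 27 with garlic extract. Diabetes replicates 1 and 3, and curcumin replicate 2, had most of the list below its mean, and were also the 3 libraries with the least Ccdc153 and Tmem212. Hydin, of the central pair, was at 8.70, 6.85 and 6.53 CPM in control and at 1.59, 9.80, 0.522 and 4.55 in diabetes (log2 change -0.83 ± 0.85). Cfap65, an axonemal gene, was at 28.2, 29.2 and 39.9 CPM in control and at 8.97, 20.3, 2.70 and 21.5 in diabetes (log2 change -1.27 ± 0.50; edgeR adjusted p = 0.334). Its groups did not overlap.

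Rsph9, of the radial spoke head, went with Tppp3 and Fam183b instead. It was at 26.1, 31.6 and 29.9 CPM in control, 38.9, 42.7, 67.9 and 68.1 in diabetes, 18.7, 10.7 and 36.3 with curcumin, and 19.9 and 33.3 with garlic extract. The diabetes group lay above the other 3 groups without overlap. Its log2 changes were 0.90 ± 0.34 against control, -1.31 ± 0.34 with curcumin and -1.03 ± 0.39 with garlic extract (edgeR adjusted p = 0.331, 0.107 and 0.392). Tppp, the relative of Tppp3 that is abundant in oligodendrocytes, went the opposite way, with means of 300.5 ± 40.5 CPM in control (SD, n = 3), 195.4 ± 29.3 in diabetes (n = 4), 290.6 ± 79.5 with curcumin (n = 3) and 346.2 ± 81.4 with garlic extract (n = 2). Its log2 change against control was -0.62 ± 0.23 (edgeR adjusted p = 0.316).

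With curcumin 46 of the 94 genes had a positive and 48 a negative log2 change (median -0.03, beside 0.07 over all genes; -0.38 without curcumin replicate 3 and 0.21 without curcumin replicate 2), and with garlic extract 51 and 43 (median 0.09, beside 0.07; -0.09 without garlic replicate 2 and 0.33 without diabetes replicate 4). None passed the edgeR test in either. At an unadjusted p under 0.05 there were 4 higher and 9 lower with curcumin (17.2% of all genes passed, in either direction), and 5 higher and 1 lower with garlic extract (10.9%). DESeq2 called 3 lower with curcumin (Meig1, Tekt2 and Rsph9) and 0 with garlic extract, where limma-voom called 0 and 1 (Tppp, higher). Rsph1, another spoke head gene, was at 2.37, 2.78 and 4.96 CPM with curcumin and at 2.54, 14.0, 8.01 and 13.2 in diabetes (log2 change -1.48 ± 0.54; edgeR adjusted p = 0.203).

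Exon length moved with the same contrasts. In diabetes against control the median log2 change over all genes was 0.23 for genes under 1 kilobase and -0.23 for genes over 4 kilobases. The 46 other cilia genes over 4 kilobases had a median of -0.78, with 6 above 0, while the 20 of 1 to 2 kilobases had 0.17, with 11 above 0. The other lengths did not follow this order: the 5 cilia genes under 1 kilobase had a median of -0.35, with 1 above 0, and the 23 of 2 to 4 kilobases -0.42, with 7 above 0, beside 0.08 over all genes of 2 to 4 kilobases. With curcumin the order turned, to 0.54 for the long and -1.01 for the 1 to 2 kilobase cilia genes, beside 0.27 and -0.37 over all genes of those lengths. Fam183b is 567 bases long and Tppp3 1848. The 1428 genes under 1 kilobase that average at least 1 CPM had their lowest median deviation, -0.82, in curcumin replicate 1, the library with the least Fam183b. After a correction for length Tppp3 had log2 changes of 1.33 in diabetes (edgeR adjusted p = 0.0279) and -1.52 with garlic extract (adjusted p = 0.0319), and -1.12 with curcumin. Those of Fam183b were 0.81, -1.42 and -2.34. The correction is 1 of 23 alternative settings, and in the main fit the edgeR adjusted p of Tppp3 was 0.0974 and 0.149. Tppp3 was picked with its difference from these diabetes libraries known, so all these p-values carry that choice.

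The 22 other tanycyte genes did not move to one side. In diabetes against control 13 were above and 9 below 0, with a median of 0.17 beside -0.07 over all genes, and 0 passed the edgeR test or were called by DESeq2 or limma-voom. At an unadjusted p under 0.05 there was 1 in each direction, where 12.3% of all genes passed in either direction. With 1 library left out the median ran from -0.21 (without diabetes replicate 4) to 0.27 (without diabetes replicate 1). The medians were -0.10 with curcumin and -0.06 with garlic extract, both beside 0.07, again with 0 calls by edgeR. With 1 library left out they ran from -0.24 (without curcumin replicate 3) to 0.04 (without diabetes replicate 4) and from -0.38 (without garlic replicate 1) to 0.23 (without diabetes replicate 4). There limma-voom called 0 in each. Vim, an intermediate filament of tanycytes and other glia, was at 19.9, 47.5, 15.8 and 85.1 CPM in diabetes, highest in replicate 4 as were Gpr50 and Col23a1, and at 27.7 to 34.4 in control. Lhx2, a transcription factor of tanycytes, was at 11.5, 25.7 and 9.17 CPM with curcumin, highest in replicate 2 as Dio2 was, and at 2.42 to 15.7 in diabetes (log2 change 1.03 ± 0.55; edgeR adjusted p = 0.350). Curcumin replicate 2 is the library whose hypothalamic identity genes summed to 55.7 CPM, and their part was not tested. Col25a1, a brain collagen, was at 108.5, 72.3 and 91.8 CPM in control and at 57.7, 67.1, 33.0 and 70.2 in diabetes (log2 change -0.67 ± 0.31; edgeR adjusted p = 0.390).

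**Figure D5:**
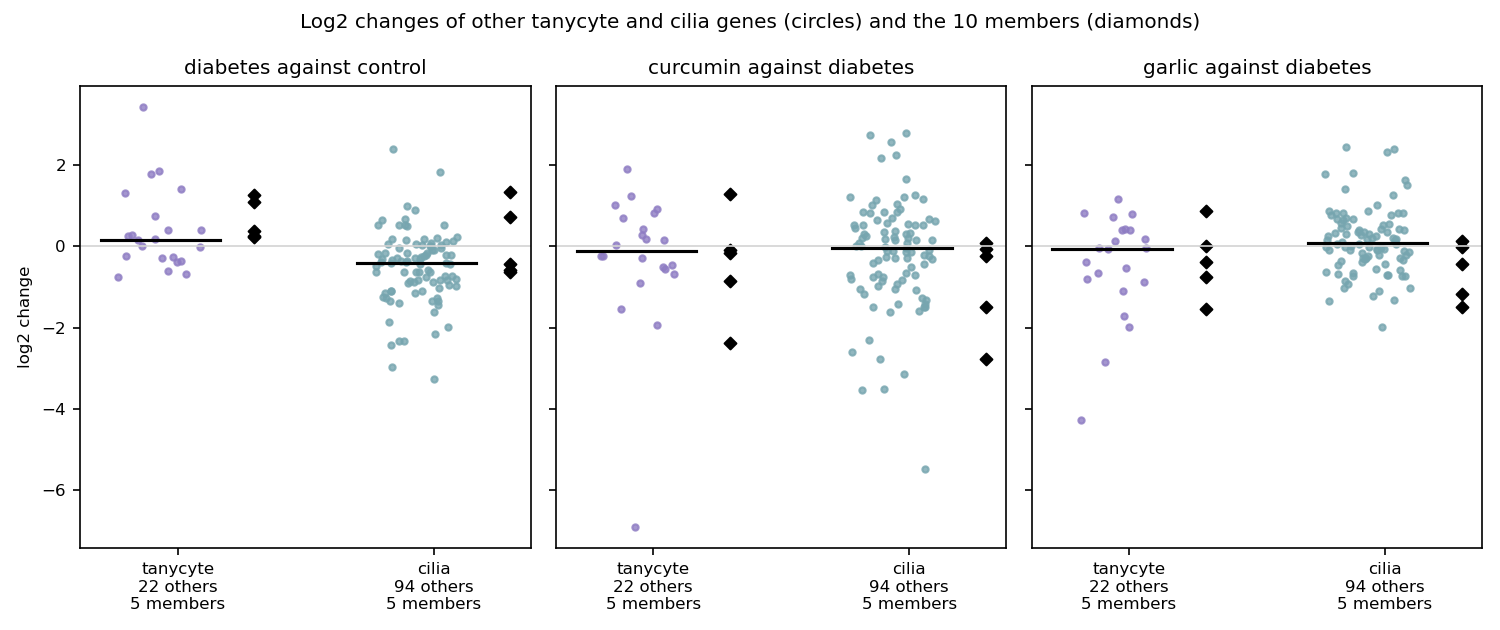
Log2 change (vertical axis) of 22 other tanycyte genes and 94 other cilia genes (circles, 1 per gene, with the median as a bar) and of the 10 members (diamonds) in 3 comparisons. In diabetes against control the bar of the cilia genes lies at -0.40 and that of the tanycyte genes at 0.17, while the cilia members run from -0.63 to 1.35.

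Thyroid hormone genes were read beside Dio2 and Crym. Of 16 such genes 15 could be tested, and 0 passed the edgeR test in any of the 3 comparisons, or were called by DESeq2 or limma-voom. At an unadjusted p under 0.05 there were 0 in diabetes against control and 1, higher, in each of the other comparisons. Over all genes 12.3% passed there, 17.2% with curcumin and 10.9% with garlic extract, in either direction. Their medians were -0.16, 0.11 and 0.14. Slco1c1, a thyroxine transporter of the blood-brain barrier and tanycytes, was at 19.9, 21.1 and 19.1 CPM in control, 13.2, 23.9, 5.66 and 18.1 in diabetes, 30.7, 53.6 and 25.03 with curcumin, and 42.3 and 25.9 with garlic extract. Both treated groups lay above diabetes without overlap, with log2 changes of 1.26 ± 0.38 and 1.16 ± 0.43 (edgeR adjusted p = 0.132 and 0.364). The 11 endothelial and mural genes summed to 188.5 to 573.7 CPM with curcumin, 225.3 and 341.6 with garlic extract and 103.1 to 285.3 in diabetes, and like Slco1c1 were highest in curcumin replicate 2 and lowest in diabetes replicate 3. Their part was not tested. Trh, the hypothalamic releasing hormone of the thyroid axis, was at 70.4, 1.94 and 84.6 CPM with curcumin, lowest in replicate 2 as were Rax and Gpr50, and at 85.0 to 126.1 in control.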

How the data were processed

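The deposited table holds raw read counts per Ensembl gene for 12 libraries, made by the authors with featureCounts on build GRCm39, with FastQC as quality control, per the submitters' processing notes. Poly-A libraries were stranded and read in pairs, per the labels' protocols. The aligner, annotation release, strand setting and treatment of reads that map to several genes were not given in the sources used here. Symbols came from a reference table.

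Counts were filtered with filterByExpr by group, scaled by TMM and fitted over all 12 libraries with edgeR 4.0.16 (R 4.3.3; glmQLFit, glmQLFTest), with Benjamini-Hochberg adjustment over 25562 genes and a threshold of 0.05. DESeq2 1.42.0 and limma 3.58.1 (voom with quality weights) were alternatives. Others were RLE or upper quartile scaling, no filter or a stricter one (1 CPM in 3 libraries), a replicate block, a covariate for the number of detected genes, a lowess offset on exon length (21886 genes with a length), a prior count of 0.5, and leaving libraries out. Log2 CPM used a prior count of 2. "Without overlap" means that every library of one group exceeded every library of the other. Profiles were compared among genes averaging at least 1 CPM. The fit was also run on simulated counts that held no outlier library, tissue difference or length trend. The outcome is not given here, and nothing is read from it. The 19 gene lists, the members and the tests were chosen with earlier results of these data known. Named genes were all 10 members, the genes of each list past the test or else its 3 most abundant, a fixed set, and the 5 genes closest to each score. Armc4, Meig1 and Tekt2 were named after their values were seen. DESeq2's calls among the other tanycyte genes with curcumin and with garlic extract are not reported here. No 2 libraries agreed within counting noise (lowest chi-square per degree of freedom 22.4). The biological coefficient of variation was 0.808.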

Additional observations from a re-analysis of the deposited data

How the results depend on the processing

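Of 460 log2 changes of the 10 genes recomputed for diabetes against control and garlic extract against diabetes, 42 changed sign. With edgeR 0 members were called in diabetes against control. Tppp3 made it 1 with no low-count filter, with DESeq2, limma-voom, the length correction or only the 2 groups, and without curcumin replicate 1 or 2 or either garlic library (range 0 to 1 with 1 library left out). With curcumin, where the calls were known when the genes were picked and the count supports nothing, the 2 members called became 0 under the stricter filter and with only the 2 groups, 1 (Tppp3) with limma-voom and 1 (Fam183b) with the length correction, with a range of 0 to 2 when 1 library was left out. With garlic extract Tppp3 made 0 into 1 with no filter, DESeq2, limma-voom and the length correction. The cause was not tested. Over all genes the calls ran from 0 to 1177 in diabetes against control, 0 to 1975 with curcumin and 0 to 429 with garlic extract, beside 4, 23 and 0.

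The median of the other cilia genes in diabetes against control, -0.40, was -0.90 with limma-voom and -1.28 with a covariate for detected genes. With garlic extract that covariate gave 1.20, and -0.62 for the other tanycyte genes. The number of detected genes did not overlap between diabetes and control, nor between diabetes and garlic extract. The covariate therefore cannot be separated cleanly from group, and nothing is read from the values it gave, here or below.

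In diabetes against control the covariate, confounded with group as said above, gave Rax -1.84, Crym -0.86, Gpr50 -2.04 and Col23a1 -0.23. Without diabetes replicate 4 and curcumin replicate 2, Gpr50 was at -0.14 and Col23a1 at -0.22, and with 1 library left out they ran from -0.13 to 0.40 and from -0.20 to 0.61. With garlic extract Dio2, at 0.00, was -0.064 with RLE scaling, -0.014 with upper quartile scaling, -0.016 with the stricter filter, -0.065 with DESeq2, -0.12 with limma-voom, -3.14 with the covariate and -0.27 with the length correction (-0.96 to 0.57 with 1 library left out). Ccdc153 was 0.029 with no filter, 0.62 with limma-voom, 2.21 with the covariate, 0.040 with only the 2 groups and 1.10 without both libraries (-0.39 to 1.06). Tmem212 was 0.29 with limma-voom, 2.17 with the covariate and 1.04 without both (-0.77 to 1.01). The covariate also gave Gpr50 2.88, Rax 2.93 and Foxj1 -0.78 (-0.18 to 0.58), and Crym ran from -0.86 to 1.65.

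Replicate numbers are shared between groups. The correlation of deviations of same-numbered libraries ran from -0.27 to 0.43, and the best match of 6 of 12 libraries shared its number. Deviations were taken from group means, so the 2 garlic libraries mirror each other, and no chance level was set. The check therefore cannot exclude pairing or a batch. The labels name no batch, so the main fit was unpaired and a replicate block was an alternative. With the replicate block, 0, 2 and 0 members were called, as without it, and 1, 47 and 1 genes over all. The block gave the other tanycyte genes a median of -0.28 in diabetes against control, Gpr50 -0.070 and Col23a1 -0.20, and with garlic extract Dio2 -0.33, Gpr50 0.043, Ccdc153 1.23 and Tmem212 1.19.

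The groups of 2 to 4 libraries and the coefficient of variation limit what can be called. Rax rested on 2 counts in curcumin replicate 2, where 3 counts equal 0.149 CPM.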
